A study of Mus musculus with 24 samples.

Results

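The distal chromosome 2 zinc finger cluster was described in the maternal-fetal interface (MFI) of WT and C1qtnf6-KO mice. Its members are the genes with a name that begins with Zfp or Gm and a start inside a 4.5 Mb window near the distal end of mouse chromosome 2. There were 94 such genes among the 55401 genes of the table, 12 named Zfp and 82 named Gm. In GRCm38 they reach from chromosome 2 position 174125038, the start of Gm10714, to position 178078476, the end of Zfp931. The cluster was selected because Zfp970, Gm14403 and Gm14418 had lower counts in KO than in WT at gd19.5, so the genotype difference at gd19.5 is given here as a description and without a test. The genotype comparisons at the other stages, the changes from gd10.5 to gd16.5 and the sequences do not use those libraries, whereas any comparison that includes gd19.5 does.

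Bulk polyA RNA was sequenced from MFI tissue on 4 days of gestation (gd10.5, gd14.5, gd16.5 and, close to term, gd19.5), with 3 libraries for each genotype and stage and 24 libraries in all. WT mice were of the C57BL/6 strain. KO mice came from a C57BL/6JCya line in which C1qtnf6 exons had been deleted by CRISPR and were used as homozygotes, and both came from one supplier. The labels name no transgene or drug for these groups, the KO mice trace to 1 edited line, and the labels do not name the dam or litter of a library, so the p-values measure only the spread between these libraries. The deleted gene, which lies on another chromosome, had 64.6 to 164.8 CPM in WT libraries and 0.0341 to 2.02 CPM in KO libraries, where CPM is the read count of a gene scaled to the normalized library size. Defining markers of trophoblast and decidua were present in each group, as the tissue label requires. The 5 trophoblast giant cell markers summed to at least 4795 CPM and the 6 decidual stroma markers to at least 1791 CPM in every library. Tissue content varied within groups, since yolk sac endoderm markers summed to 7590 and 21520 CPM in replicates 1 and 2 of KO gd16.5 and to 201 CPM in replicate 3.

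Most proteins of the cluster are KRAB zinc finger proteins. Such a protein binds DNA through an array of C2H2 fingers, each of which reads a few bases, and it carries a KRAB domain that recruits the co-repressor TRIM28 and, through it, the histone methyltransferase SETDB1 and HP1 proteins. These proteins are known for silencing transposable elements in the germ line, the early embryo and derived lineages, and their genes multiply by local duplication, so that clusters hold many close copies. GENCODE M21 lists 46 of the 94 members as protein coding, 31 as unprocessed pseudogenes and 7 as processed pseudogenes, and the rest are noncoding genes of other classes. Of the 46 coding members, 39 hold a KRAB A-box pattern and 37 hold at least 1 C2H2 pattern. The median over all 46, including those with none, was 11 C2H2 patterns, and the maximum was 25 in Gm14295. The protein of Zfp970 has 14 C2H2 patterns, that of Gm14403 has 9 and that of Gm14418 has 8.

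The 3 genes that led to the choice of the cluster are neighbours. Gm14418 lies on the minus strand at chr2:177387124-177398320, Zfp970 on the plus strand at chr2:177464733-177478129 and Gm14403 on the plus strand at chr2:177498215-177509763 (GRCm38). Their finger arrays are copies that differ by scattered bases, as a stretch of 84 bases in the last coding exon shows. It is the finger of Zfp970 whose distance to its closest match in the other 2 genes is the median of 13 fingers, and it is printed because such differences are what separates the reads of these genes. Capitals in Zfp970 mark the bases at which either of the others differs, and capitals in the others mark a difference from Zfp970. The positions are chr2:177475031-177475114 for Zfp970, chr2:177509163-177509246 for Gm14403 and chr2:177387217-177387300 for Gm14418, on the strand of each gene (GRCm38, GENCODE M21).
Zfp970: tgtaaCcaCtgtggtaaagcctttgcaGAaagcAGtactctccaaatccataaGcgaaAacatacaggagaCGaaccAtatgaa
Gm14403: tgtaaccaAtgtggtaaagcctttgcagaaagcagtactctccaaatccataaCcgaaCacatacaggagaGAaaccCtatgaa
Gm14418: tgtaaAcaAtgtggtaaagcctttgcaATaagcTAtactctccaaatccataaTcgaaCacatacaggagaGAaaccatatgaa

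This stretch of Gm14403 was 92.9% identical to that of Zfp970 and that of Gm14418 was 88.1% identical. Over whole transcripts, Zfp970 and Gm14403 were 88.4% identical in the aligned part, Zfp970 and Gm14418 were 88.3% identical, and Gm14403 and Gm14418 were 93.4% identical. No run of 150 bases, which is the length of 1 read, was shared between any pair of the 3 genes. Of the 2023 runs of 150 bases in the transcripts of Zfp970, 131 (6.48%) also occur in some other gene, and Gm14403 has none. Gm14418 shares 672 of 2439 (27.6%) with some other gene. The transcript closest to it, 99.8% identical, is that of the coding member Gm14322, which shares 665 of its 1107 runs (60.1%). Counts of Gm14418 and Gm14322 are therefore less certain than those of Zfp970 and Gm14403.

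The starts of many of the genes are alike as well. RefSeq promoters, from 250 bases before to 50 bases after the annotated start, were matched by symbol for 34 of the 94 members. Gm14418 and Gm14412 had no matched promoter. Those of Zfp970, Gm14403 and Zfp971 are shown because Zfp971, a coding member at the far end of the cluster, differed between genotypes much less than the first pair at gd19.5. The choice of Zfp971, unlike the sequences, thus used the gd19.5 libraries, and no link between promoter sequence and level was tested. The windows are chr2:177464492-177464791 for Zfp970, chr2:177497976-177498275 for Gm14403 and chr2:178023034-178023333 for Zfp971, all on the plus strand (GRCm38.p6). Capitals in Zfp970 mark bases that do not match 1 or both of the others, and capitals in the others mark bases that do not match Zfp970. Capitals at an end come in part from annotated starts that lie some bases apart.
Zfp970: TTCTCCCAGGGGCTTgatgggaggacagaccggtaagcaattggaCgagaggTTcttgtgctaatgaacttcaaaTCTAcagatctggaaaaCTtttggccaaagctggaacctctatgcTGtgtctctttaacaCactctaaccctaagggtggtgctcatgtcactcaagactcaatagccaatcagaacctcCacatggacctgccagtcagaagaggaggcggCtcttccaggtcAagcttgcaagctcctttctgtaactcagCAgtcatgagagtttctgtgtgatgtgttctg
Gm14403: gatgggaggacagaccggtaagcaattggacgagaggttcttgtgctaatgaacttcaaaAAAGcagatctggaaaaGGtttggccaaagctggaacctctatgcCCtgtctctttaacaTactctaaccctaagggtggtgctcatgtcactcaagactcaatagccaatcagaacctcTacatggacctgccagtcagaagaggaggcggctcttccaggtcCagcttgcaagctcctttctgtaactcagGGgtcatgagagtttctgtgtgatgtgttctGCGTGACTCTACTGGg
Zfp971: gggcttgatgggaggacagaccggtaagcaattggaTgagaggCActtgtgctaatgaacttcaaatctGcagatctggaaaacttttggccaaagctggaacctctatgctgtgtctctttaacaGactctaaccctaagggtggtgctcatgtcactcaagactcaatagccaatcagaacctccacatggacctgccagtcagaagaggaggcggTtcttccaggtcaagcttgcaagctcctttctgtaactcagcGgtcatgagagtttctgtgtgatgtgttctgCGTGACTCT

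The promoter of Gm14403 was 90.7% identical to that of Zfp970 and the promoter of Zfp971 was 94.7% identical. Over the 33 other member promoters the identity to Zfp970 had a median of 86.7%, 10 were at 90% or more, and the highest value was 97.7%, for Zfp966 and Zfp967. However, 7 were under 60%, and the lowest value was 12%, for Gm11009. The next lowest was 48.7%, for Gm14428, and the cause of the far lower value of Gm11009 was not tested. The longest run held by the 3 promoters shown has 59 bases, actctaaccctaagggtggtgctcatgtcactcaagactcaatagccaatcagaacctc, which in Zfp970 occupies chr2:177464628-177464686. Searched on both strands, it occurs in the promoters of 21 of 34 members (61.8%) and of 22 of all 27025 genes of the RefSeq set (0.0814%). The match is a description and marks no site of a factor.

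Many members had few or no reads, and these members tended to have little sequence of their own. Reads with more than 1 position in the genome were not counted by the authors. Of the 94 members, 23 had no read in any of the 24 libraries, 63 never reached 10 counts in a library and 31 did. Of those with no read, 15 are unprocessed pseudogenes and 5 are coding. For the 90 members with transcripts of at least 150 bases, the share of runs of 150 bases found in another gene had a median of 22% over the 24 members that passed the expression filter of at least 1 fit and of 81% over the 66 that did not. It reached 80% or more in 0 of the 24 and in 33 of the 66, and its median was 97.9% for the 21 members with no read. A member at 0 in the plot of shared sequence and counts is thus listed at 0 and not shown to be silent.

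**Figure D1:**
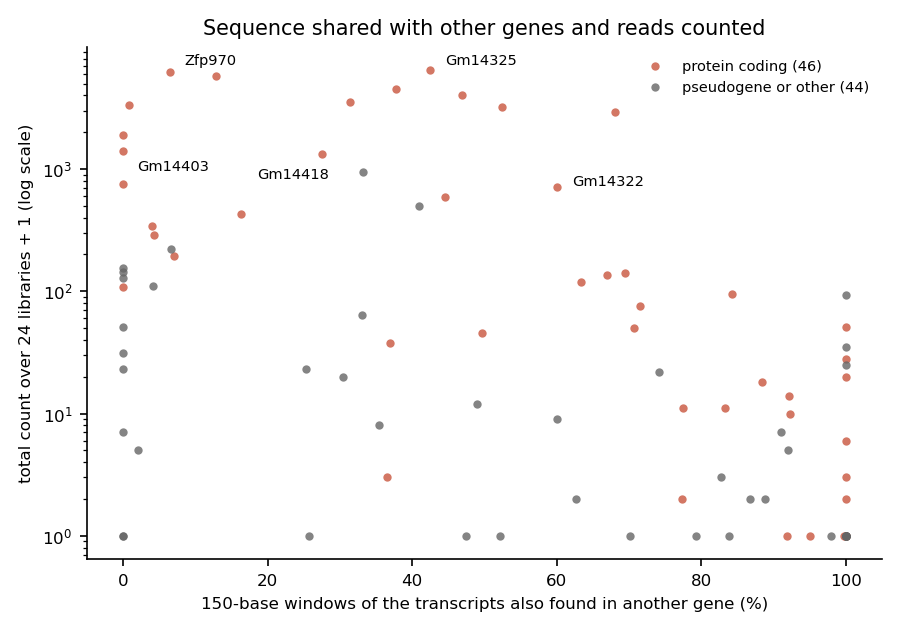
Each point is 1 of 90 members, with the percentage of 150-base runs of its transcripts that occur in another gene on the horizontal axis and its total count over 24 libraries plus 1 on a log scale on the vertical axis. Coding members are red and pseudogenes and other members are grey, and of the members listed at 0 (the points at 1), 14 share 80% or more of their runs.

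The cluster is expressed weakly in the MFI. Between 0.00622% and 0.00976% of the counts of a library fell on its members, at totals of 20975717 to 37383108 counts per library, where 3 counts, the limit used here for detection, correspond to 0.0803 to 0.143 CPM. A few coding members carried most of these counts. The 12 members with the highest mean CPM were Gm14325, Zfp970, Zfp971, Gm14295, Gm14326, Gm14399, Zfp931, Gm14305, Gm14410, Gm14443, Gm14403 and Gm14418, all of them coding, and together they held 86.5% of the member counts. Per length of exon, Gm14325 had 6.03 ± 1.14 CPM per kb (SD over 24 libraries), Zfp970 had 4.31 ± 1.51 and Zfp971 had 4.06 ± 0.844, and the SDs of neighbours in this order overlapped. The distance between Gm14325 and Zfp970 differed by group, since their mean levels per kb were 7.28 and 6.88 CPM in WT gd19.5 and 6.19 and 2.735 CPM in KO gd19.5. Gm14403 had 1.26 CPM per kb and Gm14418 had 0.811 CPM per kb. Of the 94 members, 21 passed the filter on low counts on the first day, 21 on the next, then 20, and 19 at gd19.5.

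At gd10.5, gd14.5 and gd16.5 none of the members was called between the genotypes. A member was called when edgeR's quasi-likelihood test gave a Benjamini-Hochberg adjusted p under 0.05 over all genes tested together with an absolute log2 fold change over 1. The call was made for 0 of 21, 0 of 21 and 0 of 20 members in the order of the stages, beside 0.00572%, 0.0166% and 0.00586% of all genes tested. At an unadjusted p under 0.05 there were 0, 3 and 3 members (0%, 14.3% and 15%), beside 0.801%, 6.78% and 11.1% of all genes tested, and DESeq2 called 0 at each of the 3 stages. The 3 at gd14.5 were Gm14305, Gm14295 and Gm14326, with log2 fold changes of 0.34, 0.25 and 0.28, and the 3 at gd16.5 were Gm14399, Gm14443 and Gm14410, with 0.47, 0.52 and 0.45. The 6 values were higher in KO, in which direction 3.3% of all genes passed that limit at the earlier of these stages and 5.49% at the later one, and the adjusted p-values of edgeR lay between 0.408 and 0.732.

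Zfp970 had 5.32, 5.67 and 7.17 CPM in WT and 5.83, 8.52 and 5.58 CPM in KO at gd10.5. At gd14.5 it had 9.31, 10.19 and 9.999 CPM in WT and 10.60, 9.95 and 10.37 CPM in KO. At gd16.5 it had 10.73, 11.60 and 11.01 CPM in WT and 10.58, 13.57 and 5.94 CPM in KO. The groups overlapped at each of these stages, and the library KO gd16.5 replicate 3 stood below the other 5 of its stage. The log2 fold change of KO against WT was 0.12 ± 0.22 (SE), 0.08 ± 0.08 and -0.12 ± 0.26, and the adjusted p of edgeR was 1.00, 0.877 and 0.858. Without KO gd16.5 replicate 3 the value at gd16.5 was 0.15.

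Gm14403 had 1.62, 1.65 and 1.91 CPM in WT and 1.63, 2.42 and 1.43 CPM in KO at gd10.5. At gd14.5 it had 2.57, 2.49 and 2.77 CPM in WT and 2.65, 2.52 and 2.88 CPM in KO. At gd16.5 it had 2.24, 2.33 and 2.15 CPM in WT and 2.95, 3.13 and 1.62 CPM in KO. Again the groups overlapped, and KO gd16.5 replicate 3 was the lowest of its stage. The log2 fold changes were 0.07 ± 0.26, 0.05 ± 0.14 and 0.23 ± 0.26 (SE).

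Gm14418 had 1.62, 1.19 and 1.82 CPM in WT and 1.04, 1.73 and 1.08 CPM in KO at gd10.5. At gd14.5 it had 2.65, 3.05 and 2.51 CPM in WT and 2.68, 2.21 and 3.23 CPM in KO. At gd16.5 it had 1.86, 2.37 and 2.50 CPM in WT and 2.26, 2.52 and 1.66 CPM in KO. Its groups overlapped at the 3 stages too, with log2 fold changes of -0.28 ± 0.30, -0.03 ± 0.17 and -0.03 ± 0.22 (SE).

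A genotype effect shared by these 3 stages, fitted over their 18 libraries with stage as a covariate, called 0 of 24 members beside 0.00527% of all genes, with 3 members (12.5%) at an unadjusted p under 0.05 beside 4.57% of all genes, and 0 called by DESeq2. The 3 were Gm14399 with a log2 fold change of 0.27 ± 0.09 (SE), Gm14411, a pseudogene, with 0.80 ± 0.33, and Gm14326 with 0.18 ± 0.07, each with an adjusted p of 0.969. Gm14411 rests on few reads, 0 to 25 in a library. For Zfp970, Gm14403 and Gm14418 this fit gave 0.02 ± 0.12, 0.11 ± 0.12 and -0.10 ± 0.13. The median over the 24 members was 0.09 beside 0.001 over all genes tested. The test of whether the genotype difference changed between the 3 stages called 0 of 24 members beside 0% of all genes, with 0 members at an unadjusted p under 0.05 beside 4.66% of all genes, and 0 by DESeq2. The lowest p was that of Zfp931, a coding member with 7 finger patterns, at 0.0532 before and 0.937 after adjustment.

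At gd19.5, the stage that chose the cluster, the 3 genes lay lower in every KO library than in every WT library. Zfp970 had 13.47, 14.31 and 17.02 CPM in WT and 7.63, 4.60 and 5.59 CPM in KO. Gm14403 had 2.27, 2.00 and 2.36 CPM in WT and 1.04, 0.54 and 1.06 CPM in KO. Gm14418 had 2.58, 1.81 and 2.32 CPM in WT and 0.95, 0.88 and 0.95 CPM in KO. None of the 3 pairs of groups overlapped, with counts of 339 to 411 against 136 to 176 for Zfp970, 54 to 57 against 16 to 31 for Gm14403 and 49 to 65 against 22 to 28 for Gm14418. The log2 fold changes were -1.37 ± 0.17, -1.37 ± 0.25 and -1.29 ± 0.20 (SE, n = 3 per genotype). These values selected the members, so they carry no test here.

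**Figure D2:**
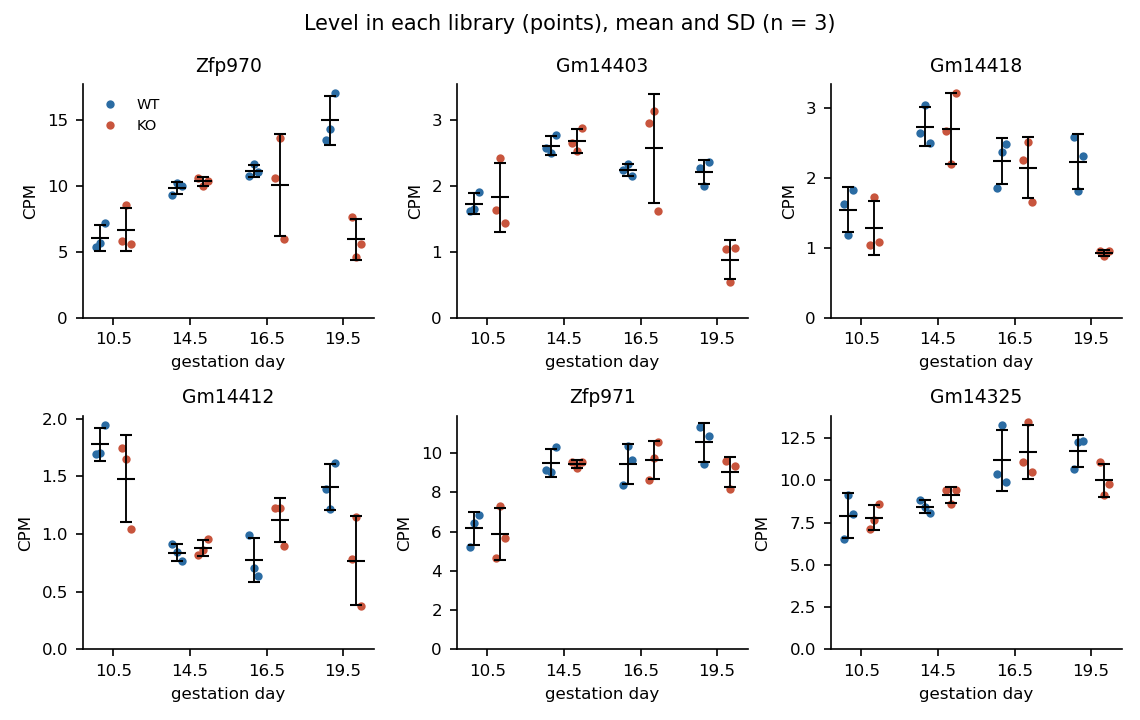
Each point is the CPM of 1 library against the gestation day, WT in blue and KO in red, with the mean and SD of 3 libraries in black. Zfp970, Gm14403 and Gm14418 overlap at the first 3 stages and not at gd19.5. Zfp971 and Gm14325 overlap between genotypes at each stage. Their promoters are 94.7% and 93% identical to that of Zfp970, and a part of promoter sequence in the levels was not tested.

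Next to them, Gm14412, a coding member with 15 finger patterns that shares no 150-base run with another gene, had 1.39, 1.22 and 1.62 CPM in WT and 0.78, 1.15 and 0.38 CPM in KO. Its groups did not overlap either, with a log2 fold change of -0.89 ± 0.34 (SE). Gm14409, the next coding member on that side, did not pass the filter at gd19.5, where it had 8 to 10 counts in WT and 3 to 6 in KO. Gm14322, the near copy of Gm14418 some way further along, had 1.27, 1.11 and 1.57 CPM in WT and 0.91, 0.81 and 0.82 CPM in KO, with a log2 fold change of -0.67 ± 0.22. Reads that fit both Gm14322 and Gm14418 equally well were counted for neither.

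Of the 19 members that passed the filter at gd19.5, 17 (89.5%) had a log2 fold change below 0, with a median of -0.27, beside 51.7% and a median of -0.007 over all genes tested. Values below 0 were also the larger part of like families, with 17 of 20 genes (85%) of the zinc finger cluster of distal chromosome 4, 48 of 61 (78.7%) of that of chromosome 13 and 246 of 362 (68%) of the other Zfp genes. For 7 of the 19 the highest KO library was under the lowest WT library, beside 8.4% of all genes tested. These 7 were Zfp970, Gm14403, Gm14418, Gm14412, Gm14322, Gm14399 and Gm14326. The opposite order was seen for 0 of 19 beside 13% of all genes. Zfp972 was the highest with a log2 fold change of 0.37 ± 0.30, and it was followed by Gm14401, which lay at 0.05 ± 0.39. Zfp971 had -0.25 ± 0.11 and Gm14325 had -0.27 ± 0.11. With CPM of the raw library size in place of the normalized one, 12 of 19 members did not overlap in that direction beside 10.8% of all genes, and without WT gd19.5 replicate 1 the count was 11 of 19. The count is part of the contrast that chose the cluster and shows no more than that choice.

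**Figure D3:**
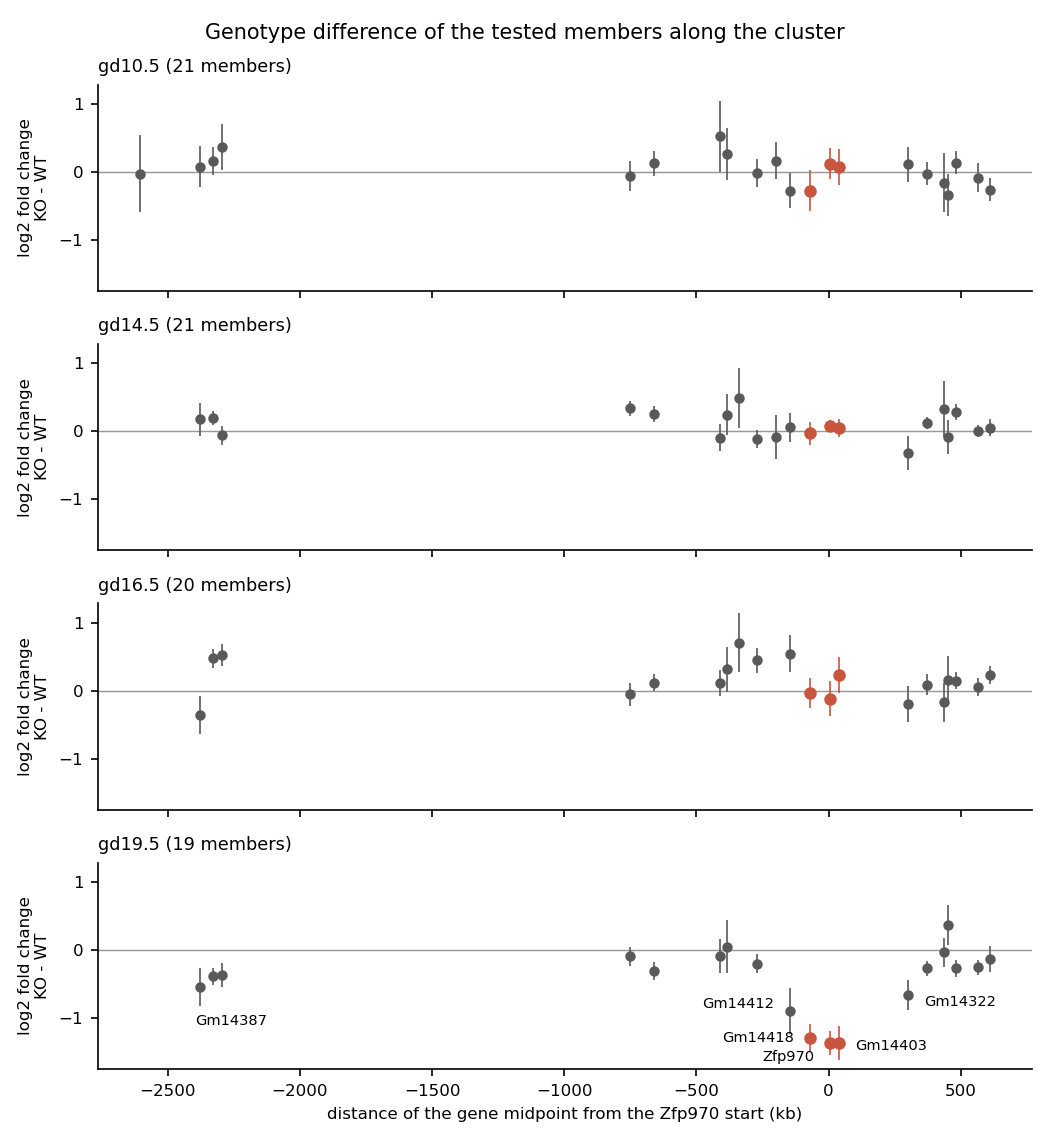
The log2 fold change of KO against WT with its SE is drawn for each tested member at the distance of its midpoint from the start of Zfp970, in kb, with 1 panel per stage and Zfp970, Gm14403 and Gm14418 in red. At gd19.5 the 4 lowest values, from -1.37 to -0.89, belong to Gm14412, Gm14418, Zfp970 and Gm14403, which have no other tested member between them, and at the first 3 stages these 4 lie between -0.28 and 0.54.

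The same order was counted at the stages that did not choose the cluster. At gd10.5 the KO libraries all lay below those of WT for 1 of 21 members (Zfp931) beside 1.91% of all genes, and above for 0 beside 2.34%. At gd14.5 they lay below for 0 of 21 members beside 7.2% and above for 4 (19%) beside 5.33%, namely Gm14295, Gm14305, Gm14326 and Gm14399. At gd16.5 they lay below for 0 of 20 members beside 11.4% and above for 5 (25%) beside 7.16%, namely Gm14399, Gm14410, Gm14411, Gm14443 and Zfp931. No member was called at either stage. At gd16.5 markers of several cell types also moved with genotype, with 4 of 5 giant cell markers higher and 4 of 6 decidual stroma markers lower in every KO library, and their part in the levels of the members was not tested. In Gm14399, a coding member with 18 finger patterns, WT had 5.34, 4.39 and 4.5 CPM and KO 6.496, 6.60 and 6.34 CPM at gd16.5, whereas at gd19.5 WT had 5.80, 5.70 and 6.46 CPM and KO 4.68, 4.91 and 4.40 CPM.

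The level summed over the 94 members was compared in the libraries of each stage. In WT it was 56.9, 67.9 and 67.7 CPM at gd10.5, then 79.6, 78.05 and 79.5 CPM, then 80.3, 87.1 and 75.6 CPM, and 86.1, 86.2 and 100.4 CPM at gd19.5. In KO it was 60.25, 77.0 and 60.4 CPM, then 87.4, 81.1 and 85.6 CPM, then 86.6, 93.8 and 81.7 CPM, and 72.9, 62.3 and 69.8 CPM at gd19.5. The genotypes overlapped at gd10.5 and gd16.5, and at gd14.5 each KO library was above each WT library. At gd19.5 each KO library was below each WT library, also when Zfp970, Gm14403 and Gm14418 were left out, with 67.8, 68.1 and 78.7 CPM in WT and 63.3, 56.3 and 62.2 CPM in KO. Both sums at gd19.5 come from the contrast that chose the cluster, and the second still holds Gm14412 and Gm14322. They are descriptions and no independent support for a lower level of the cluster.

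Other features of the gd19.5 libraries moved with genotype as well. Beside them, 8.4% of all genes tested lay lower and 13% lay higher in every KO library. Among 11 RNAs that are retained in the nucleus or often tied to RNA quality, 7 lay lower in every KO library than in every WT library and none of the 11 was at 0. Malat1 had 381.4 to 405.4 CPM in WT and 209.0 to 269.2 CPM in KO, and Neat1 had 199.4 to 218.5 CPM in WT and 137.6 to 149.5 CPM in KO. Tug1 lay higher in every KO library, with a log2 fold change of 0.009 ± 0.056 (SE). The summed level of the list ran from 1506 to 2686 CPM in WT and from 1188 to 1907 CPM in KO, so the genotypes overlapped. The list includes Xist, at -0.65 ± 0.68. Its sum was lowest in replicate 2 of each genotype, the library with the highest Y-linked level. Of 5 smooth muscle markers, 4 lay higher in every KO library, with sums of 110.7 to 141.8 CPM in WT and 156.3 to 241.9 CPM in KO, and none was at 0. Of 5 endothelium markers, 2 lay higher in every KO library. Macrophage markers summed to 796 to 911 CPM in WT and 961 to 991 CPM in KO. Of these 5 markers, 1 was higher in every KO library and 2 had a log2 fold change below 0. The 6 labyrinth markers summed to 2183 to 2970 CPM in WT and 1467 to 2014 CPM in KO, with 1 of 5 tested lower in every KO library and Synb at 0 in WT. The 6 NK cell markers summed to 16.2 to 21.03 CPM in WT and 9.68 to 15.7 CPM in KO, with 1 of 2 tested lower in every KO library. The 6 decidual stroma markers summed to 2750 to 4026 CPM in WT and 2224 to 2627 CPM in KO, and none was at 0. However, only 2 of the 6 had a log2 fold change below 0, and their median was 0.148. In every KO library 1 of them was lower and 1 was higher. Mitochondrial genes took 2.18 to 2.41% of the counts in WT and 1.93 to 2.12% in KO. Y-linked genes summed to 0.914, 160.4 and 0.911 CPM in WT and 1.69, 126 and 40.0 CPM in KO, so the level differed within each genotype. Markers of the pluripotent or early embryo, where KRAB zinc finger genes are often studied, did not exceed a sum of 0.914 CPM in any library. The part of these differences in the levels of the members was not tested, and in bulk tissue fewer cells of a type and less RNA per cell cannot be told apart.

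Genes next to the cluster and genes of like families were read beside the members. Of the 23 other genes of the window, which include Gnas, a signalling gene under imprinting, and Npepl1, a peptidase gene, 15 were tested at gd19.5 and 0 were called, with a median log2 fold change of -0.01. The lowest of them, named after its value was seen, was Sycp2, a gene of the meiotic synaptonemal complex, at -0.78 ± 0.34 (SE), and its adjusted p of edgeR was 0.361. Of 162 genes in the flanks, 77 were tested, with 0 called and a median of -0.01. The log2 fold change was below 0 for 42 of the 77. All KO libraries were under the lowest WT library for 11 of the 77 (14.3%), an order seen for 8.4% of all genes tested. In the zinc finger cluster of distal chromosome 4, 20 of 83 genes were tested, with 0 called and a median of -0.155. That order was seen for 4 of the 20 (20%). In the cluster of chromosome 13, 61 of 231 genes were tested, with 0 called and a median of -0.156. The same order held for 11 of the 61 (18%). The lowest value there, -1.80 ± 0.48 (SE) for Gm47258, was further from 0 than that of any member of the chromosome 2 cluster. Gm47258, named after its value was seen, had 13, 26 and 13 counts in WT and 3, 10 and 3 counts in KO, and its adjusted p of edgeR was 0.187. Other Zfp genes of the genome had a median of -0.07, with 246 of 362 below 0 and 0 called. For 46 of the 362 (12.7%) all KO libraries were under the lowest WT library. At gd16.5 the medians were 0.13 for the members, 0.08 for the chromosome 4 cluster, 0.17 for the chromosome 13 cluster and 0.08 for the other Zfp genes, beside 0.008 over all genes. The 18 genes of the KRAB co-repressor complex and its partners, among them Trim28 and Setdb1, had a median of 0.02 at gd19.5, with 0 called and summed levels of 1092 to 1171 CPM in WT and 1121 to 1218 CPM in KO.

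Through gestation, some members changed within a genotype, as did a large part of all genes. The comparison that does not use the gd19.5 libraries covers gd10.5 to gd16.5. A member was called by the F test over the stages with an adjusted p under 0.05 and a range of the fitted stage means over 1 on the log2 scale. In WT, 3 of 20 members were called beside 30.6% of all genes, and in KO 2 of 21 beside 27.8%. The WT members were Gm14387 and Gm14421, unprocessed pseudogenes that rose with ranges of 1.08 and 1.51, and Gm14412, with a range of 1.17. Gm14412 had 1.78 ± 0.14, 0.838 ± 0.07 and 0.778 ± 0.19 CPM at the 3 stages (SD, n = 3), and the adjusted p of edgeR was 0.000914. The KO members were Gm14411, whose range was 1.86 at 4 to 25 reads in a library, and Gm14418, whose range was 1.07 with an adjusted p of edgeR of 0.0226. Zfp970 in WT had a range of 0.89 and an adjusted p of edgeR of 0.000451, short of the limit of 1, and in KO it had 0.63 and 0.130. Gm14403 had a range of 0.58 in WT and 0.55 in KO, with adjusted p-values of edgeR of 0.0224 and 0.212.

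With gd19.5 included, 6 of 21 members (28.6%) were called in WT beside 35.9% of all genes and 4 of 22 (18.2%) in KO beside 34%. These counts use the libraries on which the cluster was picked and are given as a description. The WT members were Zfp970, Gm14387, Gm14411, Gm14412, Gm14421 and Gm14443. The mean of Zfp970 in WT was 6.05 ± 0.98 CPM at gd10.5 and 9.83 ± 0.46, 11.1 ± 0.44 and 14.9 ± 1.86 CPM at the later stages (SD, n = 3). Gm14443, a coding member with 16 finger patterns, had 1.80 ± 0.54, 3.24 ± 0.12, 2.55 ± 0.09 and 3.66 ± 0.60 CPM, with a range of 1.05. Leaving out WT gd10.5 replicate 2 gave 0.86 and leaving out WT gd19.5 replicate 3 gave 0.91, both short of the limit. Gm14411 had the widest range, 2.90, but it was counted with 0 to 4 reads in WT gd10.5, so this range depends on the prior count.

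The KO members were Gm14403, Gm14418, Gm14409 and Gm14411. Gm14403 had 1.83 ± 0.52, 2.68 ± 0.18, 2.57 ± 0.83 and 0.879 ± 0.29 CPM at the 4 stages, and Gm14418 had 1.28 ± 0.39, 2.71 ± 0.51, 2.15 ± 0.44 and 0.929 ± 0.04 CPM (SD, n = 3). Both had their lowest mean at gd19.5, the stage that selected them. Gm14409 had 0.689 CPM at gd10.5 and 0.156 CPM at gd19.5, and Gm14411 had its highest mean at gd16.5. Zfp970 in KO had 6.64 ± 1.63, 10.3 ± 0.33, 10.03 ± 3.84 and 5.94 ± 1.54 CPM. Without KO gd10.5 replicate 2 the members called in KO numbered 7. The difference between the 2 courses was not tested, because it contains the contrast that chose the members.

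Between neighbouring stages, 2 of 21 members were called in WT from gd10.5 to gd14.5 beside 22.2% of all genes. Gm14421 rose by 1.29 ± 0.32 (SE) and Gm14412 fell by 1.09 on the log2 scale. None was called from gd14.5 to gd16.5 beside 5.6%, with 1 member (4.76%), Gm14325, at an unadjusted p under 0.05 beside 35.1%, and these contrasts were run in edgeR alone. In KO, Gm14418 rose by 1.07 ± 0.24 from gd10.5 to gd14.5, the only member called of 22 beside 18.7%, and Gm14411 rose by 1.39 ± 0.35 from gd14.5 to gd16.5, the only one beside 7.53%. The step from gd16.5 to gd19.5 ends in the libraries that chose the cluster, so its values are a description. In WT 0 of 21 members passed the limits of a call beside 2.14% of all genes, with 4 (19%) at an unadjusted p under 0.05 beside 24%. In KO the log2 difference was -1.56 for Gm14403 and -1.22 for Gm14418, the 2 of 22 members past those limits beside 0.693%, and nothing is read from this count.

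**Figure D4:**
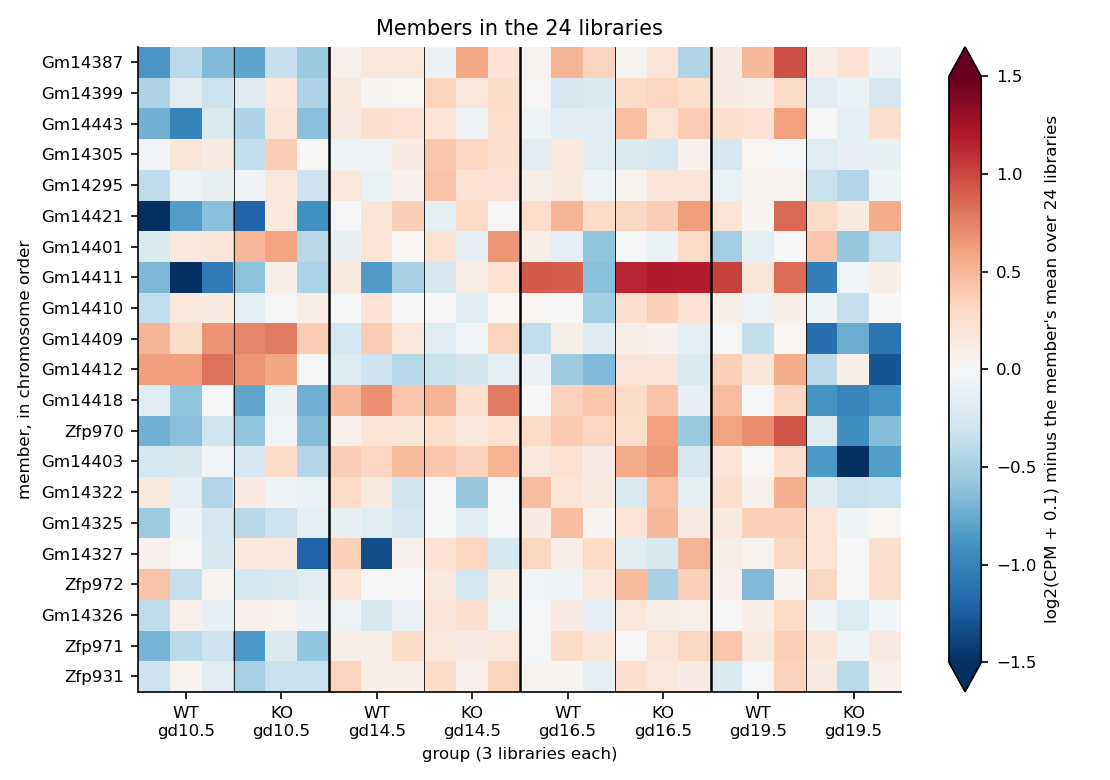
Rows are the 21 members with a mean of at least 0.3 CPM in chromosome order and columns the 24 libraries, grouped by stage and genotype. Colour is log2(CPM + 0.1) minus the mean of the member, from -1.93 to 1.19, with the scale ending at 1.5 on either side, and Gm14409, Gm14418, Zfp970 and Gm14403 are below their mean (blue) in the 3 KO gd19.5 columns, while Gm14412 is near its mean in KO gd19.5 replicate 2.

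Libraries of 1 group also differed together in Zfp970 and Gm14403. After the mean of each of the 8 groups was removed from log2 CPM, the 2 genes had a Pearson correlation of 0.87 over 24 libraries, and Gm14403 was the gene closest to Zfp970 among 19145 genes. Over the 18 libraries without gd19.5 the value was 0.95 with the same rank of 1. The lowest point in that set was KO gd16.5 replicate 3, where Zfp970 had 5.94 CPM and the other libraries of its group 10.58 and 13.57 CPM. Without that library the correlation was 0.79 over 23 libraries, with a rank of 21, and 0.86 over 17 libraries, with a rank of 57, so the first rank rests on it. Gm14418 had 0.62 with Zfp970 and 0.63 with Gm14403 over 24 libraries, and Gm14412 had 0.22 with Zfp970. KO gd16.5 replicate 3 was the lowest of its group for 10 of 20 tested members and for 35.4% of all genes tested. Its yolk sac endoderm markers, as given above, were far below those of its group. Its Y-linked genes summed to 1.125 CPM, against 191.8 and 187.5 CPM in replicates 1 and 2. The part of these differences in the correlations was not tested. The correlations are descriptions, since the genes of 1 library share its depth and tissue content, and no p is given.

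**Figure D5:**
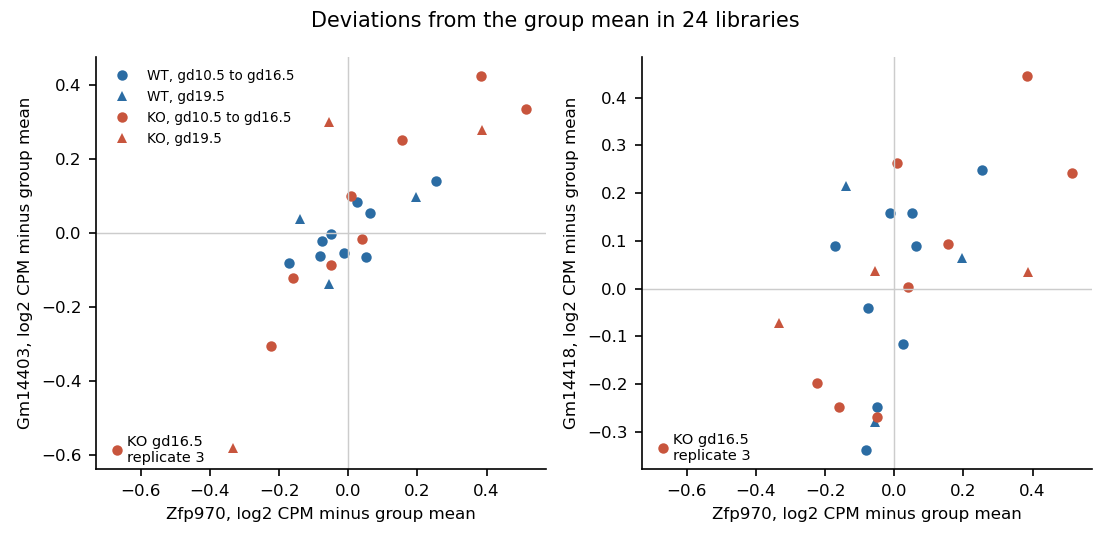
Each point is 1 of 24 libraries, with log2 CPM minus the group mean of Zfp970 on the horizontal axis and of Gm14403 (left) or Gm14418 (right) on the vertical axis, WT in blue, KO in red and gd19.5 as triangles. The correlations are 0.87 and 0.62, and KO gd16.5 replicate 3 lies at the lower left of both panels.

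Most members did not vary together in this way. The median correlation over pairs of the 22 tested members was 0.18 after removal of the group means. The 5 genes elsewhere that followed the mean of these members most closely were Cep57l1 on chromosome 10 (0.92), Spag1 on chromosome 15 (0.90), Xlr4b on chromosome X (0.88), Ints8 on chromosome 4 (0.86) and Actr6 on chromosome 10 (0.86), over 24 libraries. At the edges of the window the first member, Gm10714, had at most 4 counts in a library, and Atp5k-ps2, the nearest gene before the window, also had at most 4. The last member, Zfp931, had 92 to 234 counts, and Gm14314, the nearest gene after the window, had 0 in each of the 24 libraries.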

How the data were processed

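MFI RNA of 24 libraries was analysed, 3 for each genotype and stage. Per the labels and the study's methods, the authors trimmed reads with Trim Galore 0.6.4, aligned them to GRCm38 with STAR 2.7.3a and counted them on genes with featureCounts of Subread 2.0.0 at default settings, which ignore strand and leave out reads with several positions. Antisense pairs and near copies are thus uncertain. The deposited values are raw counts, 20975717 to 37383108 per library, and intervals between libraries cover more than counting error, since replicate pairs differed by a chi-square per degree of freedom of 7.86 to 169.

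The fits covered the whole table and used edgeR 4.0.16 under R 4.3.3, by quasi-likelihood (expression filter with a minimum count of 10 and a minimum total of 15, TMM, Benjamini-Hochberg over all genes tested). A call was an adjusted p under 0.05 plus an absolute log2 change above 1. Log2 CPM used a prior count of 2. Sequences came from GENCODE M21 and RefSeq and were compared in Python 3.11.15. The alternatives were RLE size factors, other filters, DESeq2 1.42.0, a fit of all 24 libraries, Y-linked expression as a covariate, the replicate number as a block, other thresholds and each library left out. Alternatives at gd19.5, for the gestation fits over 3 stages, for the sum without Zfp970, Gm14403 and Gm14418, and for likeness without some libraries were added after the data had been seen.

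The labels give the genotype and gestation day that define the groups, and KO libraries are numbered by their descriptions. The members, lists and tests were chosen with earlier results of these data known. Named genes were the 3 of the rule, every called member, the 12 members with the highest mean CPM, members at a limit the text uses, and the 5 genes elsewhere most like the mean of the members. On simulated counts with 200 genes changed by a log2 fold change of 2, edgeR recovered 200 with 0 false calls among 17171 genes at gd16.5, 200 with 1 false call among 18585 in the 3-stage additive fit and 200 with 3 false calls among 18300 across gestation in WT. The changed genes were drawn from those above a limit of expected counts, and the same dispersion was used for every gene. Recovery of smaller changes, or in members with few reads, was not measured.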

Additional observations from a re-analysis of the deposited data

Results flagged for a closer look

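In Gm14399, a coding zinc finger member, all KO libraries lay above all WT libraries at gd14.5 and gd16.5 and below them at gd19.5. Its log2 fold change at gd19.5 minus that at gd14.5 was -0.58, and minus that at gd16.5 it was -0.86. In Gm14326 all KO libraries lay above WT at gd14.5 and below at gd19.5, and the log2 fold change moved by -0.55 between these stages. These differences were not tested, because gd19.5 is the contrast that chose the cluster. In Zfp931 all KO libraries lay below WT at gd10.5 and above at gd16.5, which is a shift of 0.49 in the log2 fold change, and the edgeR test of genotype by stage over the first 3 stages gave an adjusted p of 0.937.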

How the results depend on the processing

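The members called between the genotypes at gd10.5, gd14.5 and gd16.5, in the additive fit and in the test of genotype by stage numbered 0 under each alternative run, and without each library in turn they ranged from 0 to 0. Across gestation in WT the 6 members became 11 without a fold-change threshold and 3 over gd10.5, gd14.5 and gd16.5 only, and 5 to 7 without 1 library. In KO the 4 became 7 with DESeq2, 10 without a fold-change threshold and 2 over the first 3 stages only, and 4 to 7 without 1 library, the 7 without KO gd10.5 replicate 2. At gd19.5 the members with no overlap became 11 with no expression filter, 12 with CPM of the raw library size and 7 to 11 without 1 library, the 11 without WT gd19.5 replicate 1. The cause of these changes was not tested.

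Log2 fold changes of Zfp970, Gm14403 and Gm14418 near 0 changed sign. Zfp970 went to -0.10 at gd10.5 and -0.05 in the additive fit with the Y-linked covariate, to -0.09 at gd10.5 and -0.04 in the additive fit without KO gd10.5 replicate 2, to 0.15 at gd16.5 without KO gd16.5 replicate 3, and in the additive fit to -0.01 without WT gd10.5 replicate 1 and -0.04 without KO gd16.5 replicate 2. Gm14403 went to -0.18 at gd10.5 and -0.02 at gd16.5 with the Y-linked covariate, to -0.17 without KO gd10.5 replicate 2 and to -0.00 at gd14.5 without KO gd14.5 replicate 3. Gm14418 went to 0.06 and 0.11 at gd14.5 without replicate 2 of WT or of KO, and at gd16.5 to 0.02 and 0.05 without WT replicates 2 and 3 and to 0.12 without KO replicate 3. The median log2 CPM of the tested members at gd10.5 differed by -0.04 (KO minus WT), where the sum was higher in KO. Without 1 library, these values ran from -0.09 to 0.27 at gd10.5 and -0.40 to 0.15 at gd16.5 for Zfp970, from -0.17 to 0.23 at gd10.5 and -0.00 to 0.10 at gd14.5 for Gm14403, from -0.17 to 0.11 at gd14.5 and -0.16 to 0.12 at gd16.5 for Gm14418, and from -0.04 to 0.11 for Zfp970 in the additive fit. At gd19.5 the 3 genes kept their sign under each alternative.

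Most same-numbered libraries did not deviate together: 13 of 84 pairs had a correlation over 0.1, with a range from -0.46 to 0.47. Replicate 3 of WT and KO gd16.5 had 0.41. Differently numbered pairs were not read beside them. The labels name no link between same-numbered libraries, so the replicate block rests on the number alone. It gave 0 called members between the genotypes, 6 across gestation in WT and 4 in KO. Members under about 1 CPM rest on few reads, so small differences in them were not detectable at this depth.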
